A study of Mus musculus with 2 samples.

Results

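Cycling keratinocytes are epidermal cells that were making DNA or dividing when the tissue was taken. Here they were the cells with at least 2000 UMIs (unique molecular identifiers, 1 for each captured RNA molecule) and at most 15% of UMIs on mitochondrial genes. They also had at least 20 UMIs of the basal keratins Krt5 and Krt14 together, at least 3 UMIs of the proliferation genes Mki67 and Top2a together, no UMI of the pan-leukocyte gene Ptprc, and fewer than 20 UMIs of the collagen genes Col1a1 and Col1a2 together. Of 26551 deposited cells, 147 met this rule, 60 of 12800 in WT_LW and 87 of 13751 in TLR9agonist_LW. The members were thus chosen by their measured Krt5, Krt14, Mki67 and Top2a counts, which are given below as a description only.

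Both libraries came from dorsal skin of wild-type (genotype WT) C57BL/6J male mice aged 6 to 8 weeks that healed from a circular wound of 1.8 cm diameter. By the labels the control, WT_LW, was sprayed with PBS on days 0, 3 and 6 after wounding, and TLR9agonist_LW received the TLR9 agonist ODN2395, a synthetic CpG oligonucleotide, on the same days. The sources differ on the control: the labels and the study's methods give PBS, while a legend of the study names a control oligonucleotide for wounds of the same group name, and its text has the reagents added in drops. Which of these WT_LW received cannot be told apart here, so an effect of any oligonucleotide and one of the agonist cannot either. Skin was taken 2 days after the scab came off (SD2) in a study of wound-induced hair neogenesis (WIHN), and the cells of several mice were pooled into 1 library per group. Each value below therefore has no replicate, no test between the groups was possible, and intervals cover only counting error or, for a median over cells, the cells of 1 library.

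Basal keratinocytes sit on the basement membrane, carry Krt5 and Krt14, and are the cells of the epidermis that normally divide. Daughter cells that leave this layer stop dividing and switch to Krt1 and Krt10. During the cycle, genes for DNA synthesis such as Pcna, the sliding clamp of DNA polymerase, and Rrm1, a subunit of ribonucleotide reductase, are used in S phase, while mitotic genes such as Ube2c, which helps the anaphase-promoting complex tag cyclins for destruction, and Birc5 (survivin) are used in G2 and M phase.

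The promoters of some such genes, and of the rule's Mki67 and Top2a, are shown as examples. The 120 bases before the transcription start are given 5′ to 3′ on the gene's strand, from RefSeq on GRCm38.p6. Capitals mark 3 motifs read on both strands, TTTGAA (the core of the cell cycle genes homology region, CHR, which recruits the MuvB complexes that time late cell cycle genes), CCAAT (the box bound by NF-Y) and GCGGGAA (an E2F-like site), and no match overlapped another.
Mki67, minus strand, chr7:135716380-135716499: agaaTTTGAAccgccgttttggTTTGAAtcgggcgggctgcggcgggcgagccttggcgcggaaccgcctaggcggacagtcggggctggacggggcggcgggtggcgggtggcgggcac
Top2a, minus strand, chr11:99024190-99024309: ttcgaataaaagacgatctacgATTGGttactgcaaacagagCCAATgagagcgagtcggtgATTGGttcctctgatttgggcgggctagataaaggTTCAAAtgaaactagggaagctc
Hmgb2, plus strand, chr8:57511723-57511842: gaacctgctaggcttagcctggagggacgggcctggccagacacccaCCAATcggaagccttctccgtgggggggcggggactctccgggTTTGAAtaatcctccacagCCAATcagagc
Ube2c, plus strand, chr2:164769809-164769928: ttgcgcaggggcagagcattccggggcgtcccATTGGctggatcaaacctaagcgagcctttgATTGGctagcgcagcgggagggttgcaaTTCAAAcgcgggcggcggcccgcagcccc
Pcna, minus strand, chr2:132253181-132253300: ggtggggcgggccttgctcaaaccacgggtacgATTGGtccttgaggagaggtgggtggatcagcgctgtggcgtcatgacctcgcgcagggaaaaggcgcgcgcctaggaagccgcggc
Rrm1, plus strand, chr7:102441575-102441694: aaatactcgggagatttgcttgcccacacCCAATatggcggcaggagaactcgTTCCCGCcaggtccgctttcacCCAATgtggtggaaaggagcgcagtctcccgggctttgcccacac

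Within 250 bases before the start, TTTGAA on either strand stood in 37.3% of the 51 promoter entries of the G2M list, in 18.2% of the 33 entries of the S phase list and in 16% of all 32851 entries. CCAAT stood in 74.5% and 66.7% of the entries of these lists and in 33.8% of all entries. GCGGGAA was found in 33.3% of the S phase entries, 1.96% of the G2M entries and 3.82% of all. The entries covered 46 of the 52 genes of the G2M list and 30 of the 42 of the S phase list, and a match describes only the letters of the window.

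The cells passed as keratinocytes by genes that the rule did not use. Trp63, the transcription factor of stratified epithelium, had a UMI in 59 of the 60 cells of WT_LW and 84 of the 87 of TLR9agonist_LW. The 9 keratinocyte genes outside the rule (Krt15, Trp63, Col17a1, Dsp, Perp, Sfn, Krt17, Epcam and Cdh1) summed to 7879 and 7282 CPM (counts per 1000000 UMIs of the pooled cells), with single cells from 1646 to 36789 CPM and from 2293 to 16662 CPM. In leukocytes of the same libraries (cells with at least 3 UMIs of Ptprc) they summed to 513 and 1172 CPM. By contrast, 8 macrophage and dendritic cell genes summed to 364 and 367 CPM in the cycling cells against 17404 and 12379 CPM in the leukocytes. Single cycling cells reached 9896 and 13218 CPM of these genes, with median cells at 256 and 158 CPM. The 5 fibroblast genes summed to 329 and 445 CPM in the cycling cells. The 5 genes of T and NK cells summed to 17.6 and 18.2 CPM and those of endothelial cells to 11.7 and 9.8 CPM. Of the melanocyte genes, Tyrp1 and Mlana were at 0 in both libraries. Genes of other cell types made up 5% or more of the marker UMIs in 21 of 60 and 11 of 87 cycling cells, and 7 and 2 cells were among the 10% with the highest doublet score.

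The selected counts were as follows. Krt14 held 19379 UMIs in WT_LW and 29668 in TLR9agonist_LW, from 4 to 1305 per cell (median 214) and from 15 to 2014 (median 311). Mki67, a protein that coats mitotic chromosomes, held 685 and 437 UMIs, with at most 55 and 22 in a cell and medians of 5.5 and 4. Top2a, the topoisomerase that untangles replicated DNA, held 612 and 588 UMIs, with at most 55 and 36 in a cell and medians of 4.5 and 5. The sum of Mki67 and Top2a had a median of 10 in WT_LW and 9 in TLR9agonist_LW. Just inside the threshold, at 3 UMIs, stood 12 and 16 cells, whose S phase and G2M lists together had a median of 21.8 and 29 UMIs per 10,000. Just outside, at 2 UMIs, stood 15 and 30 cells with medians of 15.3 and 24.3 UMIs per 10,000. Over all cycling cells these medians were 78 and 62.3, and in keratinocytes of the gate with no Mki67 or Top2a UMI 13.4 and 8.83. The cells near the threshold thus lay nearer to the non-cycling cells than to the median cycling cell in both libraries.

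Depth was similar in the cycling cells of both libraries, with a median of 26457 UMIs in WT_LW (2390 to 70040) and 24183 in TLR9agonist_LW (2778 to 59705). The non-cycling cells were shallower, at medians of 14134 and 20371 UMIs. The whole libraries held 99374045 and 132339022 UMIs and shared 47 barcodes, none of which was a cycling keratinocyte. In cells thinned to 5000 UMIs, cycling keratinocytes of WT_LW had a median of 1848 genes and those of TLR9agonist_LW 1619, and the cells from the 25th to the 75th percentile ran from 1771 to 1962 and from 1536 to 1719, so these ranges did not overlap. Malat1, a nuclear long non-coding RNA, gave 13871 and 8293 CPM, and ribosomal protein genes took 30.2% and 33.3% of UMIs. Their part in the library differences below was not tested.

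The first comparison asked what share of the keratinocytes was cycling in the control and after the agonist. Among cells that met every criterion other than Mki67 and Top2a, 60 of 309 were cycling in WT_LW, or 19.4% (exact Clopper-Pearson 95% interval 15.2 to 24.3%). In TLR9agonist_LW, 87 of 762 were cycling, or 11.4% (9.25 to 13.9%). The intervals, which cover counting error within each library only, did not overlap, and the share was 1.7 times as high in WT_LW. After each cell was thinned to 5000 UMIs and called by at least 1 UMI of Mki67 or Top2a, the shares were 20.9% (16.2 to 26.3%) and 14% (11.6 to 16.8%), with 41 and 43 shallower cells left out. Without the cells rich in genes of other types the shares were 19.9% and 13.1%, and without the cells of high doublet score 18.9% and 11.6%.

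The size of this difference depended on which keratinocytes formed the denominator. Of the non-cycling cells, 56 of 190 in WT_LW and 225 of 569 in TLR9agonist_LW had more Krt1 and Krt10 than Krt5 and Krt14 UMIs, so these pools held differentiated cells. With such cells left out, 25.4% (19.9 to 31.6%) of 228 cells were cycling in WT_LW and 16.8% (13.7 to 20.4%) of 499 in TLR9agonist_LW. Among cells with at least 3 UMIs of Col17a1, Itga6 and Itgb4, the hemidesmosome genes by which basal cells hold the basement membrane, the shares were 28% (21.6 to 35%) and 20.9% (16.9 to 25.4%). When those cells were thinned to 5000 UMIs, the shares were 26.4% (20.1 to 33.6%) and 23.5% (19.3 to 28.3%), and the intervals overlapped over most of their length. WT_LW was the higher library in each of these counts. All these calls rested on Mki67 and Top2a, whose longest transcripts have 10061 and 5221 bases. Genes with long transcripts had lower ratios in TLR9agonist_LW, as given below. The part of transcript length in the cycling shares was not tested.

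**Figure D1:**
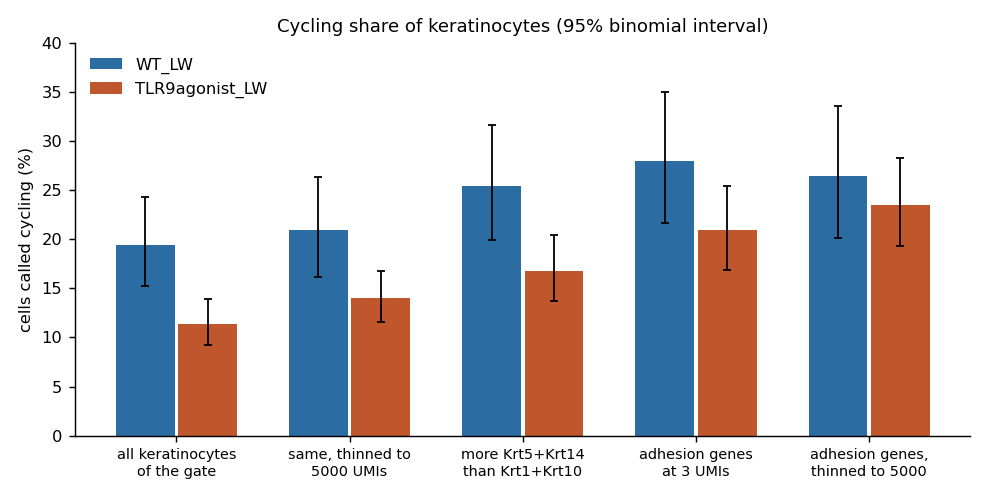
Share of keratinocytes called cycling (%, y axis) in each library for 5 choices of cells (x axis), with exact 95% binomial intervals as bars. WT_LW was higher in every pair, from 19.4% against 11.4% over all keratinocytes of the gate to 26.4% against 23.5% in cells with adhesion genes thinned to 5000 UMIs. The part of the transcript length of Mki67 and Top2a in these shares was not tested.

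The differentiation keratins were then set against Krt5 and Krt14, which the rule required, so the balance is a description and no check of basal identity. Krt1 and Krt10 exceeded Krt5 and Krt14 in 2 of 60 cycling cells of WT_LW (3.33%, exact interval 0.406 to 11.5%). In TLR9agonist_LW they did so in 3 of 87 (3.45%, 0.717 to 9.75%), and these counting intervals overlapped. The median share of Krt1 and Krt10 among the 4 keratins was 1.31% in WT_LW and 2.14% in TLR9agonist_LW, and the most differentiated cells reached 88.9% and 94.5%. Every cycling cell held at least 1 UMI of Krt1 or Krt10. In the leukocytes of the same libraries Krt1 stood at 321 and 693 CPM, and in the endothelial cells at 277 and 235 CPM, so cells that should lack it carried it too.

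The next comparison placed the cells within the cycle by genes that the rule did not use. For each cell the UMIs of the S phase list were divided by those of the S phase and G2M lists together. The median was 19.7% in WT_LW (exact 95% interval of the median 12.5 to 30.1%) and 23.9% in TLR9agonist_LW (16.4 to 28.6%). These intervals come from the ranks of the cells within a library and cover no spread between mice. The 25th to 75th percentile of cells ran from 10.8 to 35% and from 11.1 to 38.7%, and single cells from 4.62 to 67.3% and from 2.13 to 64.5%, so the libraries overlapped almost fully. S phase UMIs exceeded G2M UMIs in 9 of 60 cells (15%, exact interval 7.1 to 26.6%) and in 11 of 87 cells (12.6%, 6.48 to 21.5%), while 10 and 16 cells lay between 40 and 60%, near this boundary. A share below 10%, that is a cell dominated by G2M genes, was seen in 14 and 17 cells. The share ranks cells and does not split them into types.

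**Figure D2:**
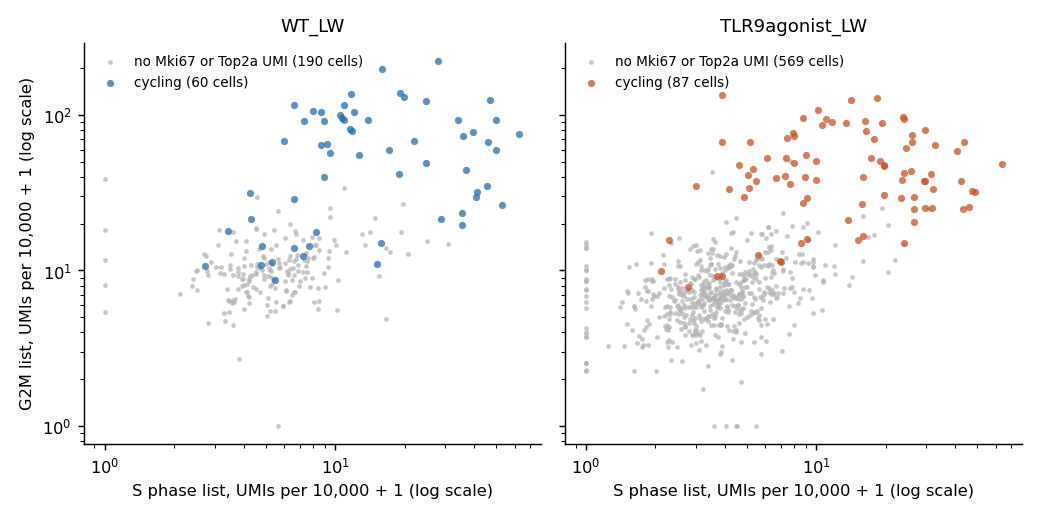
UMIs per 10,000 of the S phase list (x axis) and the G2M list (y axis), with 1 added, on log scales, for each keratinocyte of the gate; coloured points are cycling cells and grey points have no Mki67 or Top2a UMI. Cycling cells spread from G2M-rich to S-rich in both libraries, with a median S share of 19.7% in WT_LW and 23.9% in TLR9agonist_LW, and a minority overlapped the grey cells.

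The cell cycle genes were then compared between the libraries within the cycling cells. Ratios are given as log2 of TLR9agonist_LW over WT_LW relative to the median gene, since the median of all genes was shifted by -0.20 on the CPM scale. Of 4197 genes counted (at least 100 UMIs in both libraries together and 10 in each), 2.72% were at least 2-fold higher and 3.43% at least 2-fold lower in TLR9agonist_LW. Of the S phase list, 23 genes were counted, of which 1 was past 2-fold higher and 1 lower, with a median of 0.24. Of the G2M list, 40 were counted, none higher and 3 lower, with a median of -0.21. Both medians were well under 2-fold. The 3 lower G2M genes were 7.5% of that list and the 1 S phase gene in each direction 4.35% of its list, shares that stand above those of all genes but rest on 1 to 3 genes.

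Single S phase and G2M genes were close in level. Hmgb2, a chromatin protein of dividing cells, gave 817 and 814 CPM in WT_LW and TLR9agonist_LW, with at most 86 and 107 UMIs in a cell. Pcna was at 120 CPM in both libraries. Ube2c was at 315 and 374 CPM, Birc5 at 200 and 180 CPM, and Ccnb1, the mitotic cyclin B1, at 71.6 and 59.3 CPM. Rrm2, the other subunit of ribonucleotide reductase, was the S phase gene past 2-fold, with 66 UMIs (38.7 CPM) in WT_LW against 165 UMIs (77 CPM) in TLR9agonist_LW, a log2 ratio of 1.19 (exact 95% counting interval 0.77 to 1.62).

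The 3 G2M genes past 2-fold lower were Cenpf and Cenpe, kinetochore proteins that link chromosomes to microtubules, and Ckap2, a spindle protein. Cenpf stood at 261 CPM in WT_LW against 95.2 CPM in TLR9agonist_LW, a log2 ratio of -1.26 (-1.51 to -1.02), although a similar share of cells held it, 68.3% and 65.5%. Cenpe stood at 139 and 49.5 CPM (log2 -1.29, -1.63 to -0.95) and Ckap2 at 65.7 and 21.9 CPM (log2 -1.39, -1.91 to -0.88). Casp8ap2, which acts in histone gene expression, was the S phase gene past 2-fold lower, at 48.1 and 18.7 CPM (log2 -1.17, -1.75 to -0.61). Cenpf and Cenpe have long transcripts, 11130 and 7910 bases for the longest in GENCODE vM21.

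Transcript length moved with the library ratio over all genes counted. Over the 1049 genes with the shortest transcripts (204 to 1907 bases) the median log2 ratio was 0.18, and 50 genes were past 2-fold higher and 20 lower. Over the 1049 with the longest transcripts (4793 to 93092 bases) the median was -0.30, and 13 were past 2-fold higher and 79 lower. In the G2M list, the 20 genes with shorter transcripts had a median of -0.08 and the 20 with longer transcripts -0.43, and in the S phase list the values were 0.37 for 11 genes and 0.02 for 12. The part of length in the genes named here, and in the cycling shares called by Mki67 and Top2a, was not tested.

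Among the cell cycle regulators, 12 genes were counted, none past 2-fold higher and 1 lower, with a median of -0.08. That gene was Ccnd2, a D-type cyclin that drives entry into the cycle, at 167 CPM in the control and 66.7 CPM after the agonist. Ccnd1 stood at 76.9 and 44.8 CPM, Cdk4, the kinase partner of both, at 113 and 119 CPM, and Myc at 70.4 and 58.3 CPM. Cdkn1a, the inhibitor p21, stood at 223 and 267 CPM. Thus the D cyclins were lower in TLR9agonist_LW by values on either side of 2-fold, while their kinase and the inhibitor were within 2-fold.

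The libraries were then compared over all genes of the cycling cells. Of the genes counted, 114 were at least 2-fold higher and 144 at least 2-fold lower in TLR9agonist_LW, the counts behind the 2.72% and 3.43% above; on the CPM scale without the shift by the median gene the counts were 77 and 281, so the balance of the directions depended on the scaling. Without the cells rich in genes of other types they were 109 and 136, and without those of high doublet score 117 and 140.

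Serpinb2, a protease inhibitor of stressed keratinocytes, had the highest ratio. It held 226 UMIs in 26 of 60 cells of WT_LW and 2983 UMIs in 72 of 87 cells of TLR9agonist_LW, with a median of 0 and 10 and a maximum of 44 and 236 UMIs per cell. Its level was 133 CPM (exact Poisson interval 116 to 151) and 1392 CPM (1342 to 1443), a log2 ratio of 3.59 (3.39 to 3.79). Leukocytes of the same libraries held 13.4 and 202 CPM and endothelial cells 3.5 and 57.8 CPM, both under the cycling cells of their own library. After thinning to 5000 UMIs, 21.1% and 68.6% of cycling cells had a Serpinb2 UMI, so both more cells with a UMI and higher counts went with the ratio. How far free RNA contributed to the Serpinb2 ratio was not tested.

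S100a8 and S100a9, the 2 subunits of the antimicrobial protein calprotectin, came next among the wound genes. S100a8 held 514 UMIs in 31 of 60 cells of WT_LW and 4015 UMIs in all 87 cells of TLR9agonist_LW, with medians of 1 and 16 UMIs per cell. The levels were 302 CPM (276 to 329) and 1873 CPM (1816 to 1932), a log2 ratio of 2.83 (2.70 to 2.97). S100a9 gave 343 and 2228 CPM, and its log2 ratio was 2.89 (2.77 to 3.02).

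The background of S100a8 also differed between the libraries. Endothelial cells of WT_LW held 18.9 CPM and those of TLR9agonist_LW 386 CPM, while leukocytes held 146 and 1124 CPM. Both references were under the cycling cells of their library, and the lowest cycling cell of TLR9agonist_LW held 1 UMI. Of the neutrophil genes, Csf3r had no UMI in the cycling cells of either library, Retnlg 0 and 1 UMI, and Cxcr2 1 and 5 UMIs. The part of free RNA in the S100a8 and S100a9 ratios was not tested.

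Areg (amphiregulin), a ligand of the EGF receptor, held 126 UMIs in 21 of 60 cells of WT_LW and 869 UMIs in 63 of 87 cells of TLR9agonist_LW. The level was 73.9 CPM (61.6 to 88) and 405 CPM (379 to 433), a log2 ratio of 2.65 (2.38 to 2.93). After thinning to 5000 UMIs, 21.1% and 50% of cells had an Areg UMI. Leukocytes held more Areg than the cycling cells in both libraries, at 146 and 972 CPM, while endothelial cells held 19.5 and 253 CPM. The part of free RNA in the Areg ratio was not tested.

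Ptgs2, the prostaglandin synthase COX-2, gave 43.4 and 251 CPM in the cycling cells. Its log2 ratio was 2.72 (2.37 to 3.10), with 186 and 531 CPM in leukocytes and 24.9 and 135 CPM in endothelial cells. Has2, the hyaluronan synthase of wounded epidermis, gave 20.5 and 125 CPM, and its log2 ratio was 2.80 (2.28 to 3.35), against 5.35 and 9.74 CPM in leukocytes and 6.04 and 7.34 CPM in endothelial cells. For Has2 a single cell held 51.4% of the UMIs of WT_LW, and without the 10% of cells of each library richest in it the ratio was 4.65. That value rests on few UMIs of WT_LW. Has2 was thus above both references by more than Areg or Ptgs2 was.

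The ratio of Cxcl2, a neutrophil-attracting chemokine, rested on 1 cell. It held 121 UMIs in WT_LW and 751 in TLR9agonist_LW, of which 486 were in a single cell. Over all cells its log2 ratio was 2.50 (2.22 to 2.79), but it was 0.85 without the 10% of cells richest in it. Its levels of 71 and 350 CPM were under those of leukocytes (2907 and 5350 CPM) and endothelial cells (232 and 1365 CPM) and the part of free RNA was not tested.

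The other genes at the upper end were Ccdc71l (68.7 and 474 CPM), the replication histone gene Hist1h4i (25.8 and 126 CPM), the transcriptional repressor Prdm1 (12.9 and 60.2 CPM), the glutathione transferase Gsta4 (12.9 and 57.4 CPM) and the small heat shock protein Hspb1 (426 and 1833 CPM). Endothelial cells held more of 2 of these, Prdm1 at 69.9 and 225 CPM and Hspb1 at 653 and 5327 CPM. A single cell of TLR9agonist_LW held 38.2% of the Gsta4 UMIs. Histone genes have near-identical copies, so the count of Hist1h4i is uncertain.

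**Figure D3:**
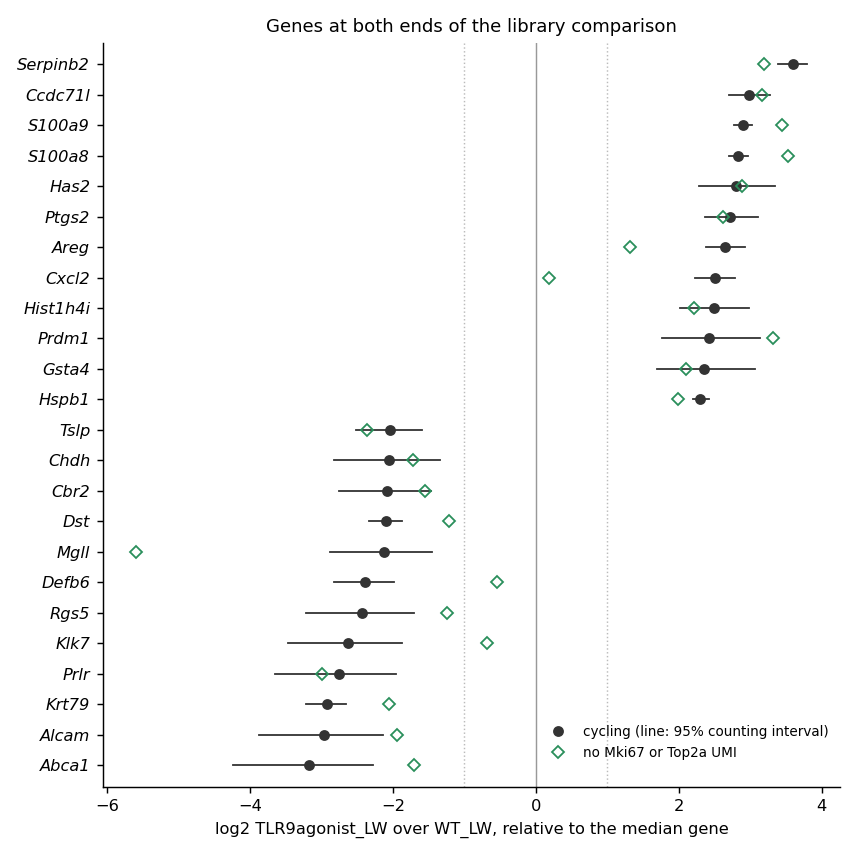
log2 ratio of TLR9agonist_LW over WT_LW relative to the median gene (x axis) for 12 genes from each end of the ranking in cycling keratinocytes; filled points with exact 95% counting intervals are cycling cells, open diamonds are keratinocytes with no Mki67 or Top2a UMI. Serpinb2 lay at 3.59 in cycling cells and 3.19 in non-cycling cells, while Cxcl2 lay at 2.50 and 0.18 and Mgll at -2.13 and -5.59.

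At the lower end, Krt79, a keratin of the follicle's upper opening and sebaceous duct, held 873 UMIs in 34 of 60 cells of WT_LW and 126 UMIs in 16 of 87 cells of TLR9agonist_LW. The level was 512 CPM (479 to 548) and 58.8 CPM (49 to 70), a log2 ratio of -2.93 (-3.21 to -2.66). A single cell held 51.6% of its UMIs in TLR9agonist_LW, and with equal weight for each cell the ratio was -1.89. After thinning to 5000 UMIs, 29.8% and 3.49% of cells had a Krt79 UMI, so the lower level went with fewer cells. Sebaceous and lipid-making keratinocyte genes differed the same way: the 6 marker genes summed to 375 CPM in the cycling cells of WT_LW and 160 CPM in those of TLR9agonist_LW, with single cells from 0 to 8178 and from 0 to 3532 CPM. In the non-cycling cells they summed to 2016 and 98.2 CPM. Of these genes Fa2h was at 0 in both pools of TLR9agonist_LW. Their part in the lower Krt79, Mgll and hair follicle genes was not tested.

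Krt15, a keratin of basal and follicle bulge cells, was lower in TLR9agonist_LW as well. It is named here as a member of the basal list and not for its rank. It held 1358 UMIs in 51 of 60 cells and 502 UMIs in 53 of 87 cells, with medians of 13 and 2 UMIs per cell. The level was 797 CPM (755 to 841) and 234 CPM (214 to 256), a log2 ratio of -1.57 (-1.72 to -1.42). After thinning, 80.7% and 40.7% of cells had a Krt15 UMI. The values of both libraries overlapped from 0 to 65 UMIs, and only WT_LW had cells above that, up to 192.

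Dst (dystonin), which anchors keratin filaments at hemidesmosomes, stood at 462 CPM (431 to 496) and 94.2 CPM (81.7 to 108), a log2 ratio of -2.10 (-2.33 to -1.87), with medians of 7 and 2 UMIs per cell. Its longest transcript has 23279 bases. A single cell held 24.6% of its UMIs in WT_LW, and endothelial cells, at 679 and 337 CPM, held more than the cycling cells and were also lower in TLR9agonist_LW. Col17a1, another hemidesmosome protein, stood at 673 and 478 CPM, and Itga6 at 481 and 279 CPM, log2 ratios of -0.30 and -0.59. The basal list therefore had 2 of 14 genes past 2-fold lower, Dst and Krt15, and a median of -0.10.

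The remaining genes at the lower end had few UMIs in TLR9agonist_LW. Abca1, a cholesterol exporter, held 91 and 11 UMIs, the adhesion molecule Alcam 99 and 14, the prolactin receptor Prlr 92 and 15, and Chdh, a choline-oxidising enzyme, 79 and 21. The protease Klk7 held 96 and 17 UMIs, the beta-defensin Defb6 281 and 59, the monoglyceride lipase Mgll 88 and 22, and the carbonyl reductase Cbr2 105 and 27. Rgs5, known from pericytes, held 93 and 19 UMIs, of which a single cell of WT_LW held 63.4%. Tslp, a cytokine that keratinocytes release, held 191 and 51 UMIs, of which a single cell of WT_LW held 71.2%. After thinning, 1.75% and 2.33% of cells had an Rgs5 UMI and 7.02% and 5.81% a Tslp UMI, so the share of cells with these genes was alike. For Alcam a single cell held 57.6% of the UMIs of WT_LW. Abca1 (53.4 and 5.13 CPM), Rgs5 (54.6 and 8.86 CPM) and Mgll (51.6 and 10.3 CPM) lay under the endothelial cells, which held 317 and 218 CPM, 430 and 350 CPM, and 129 and 86.4 CPM. The part of free RNA in their ratios was not tested. Chdh, in contrast, was found in 39 of 60 and 17 of 87 cells and had no UMI in endothelial cells of either library.

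**Figure D4:**
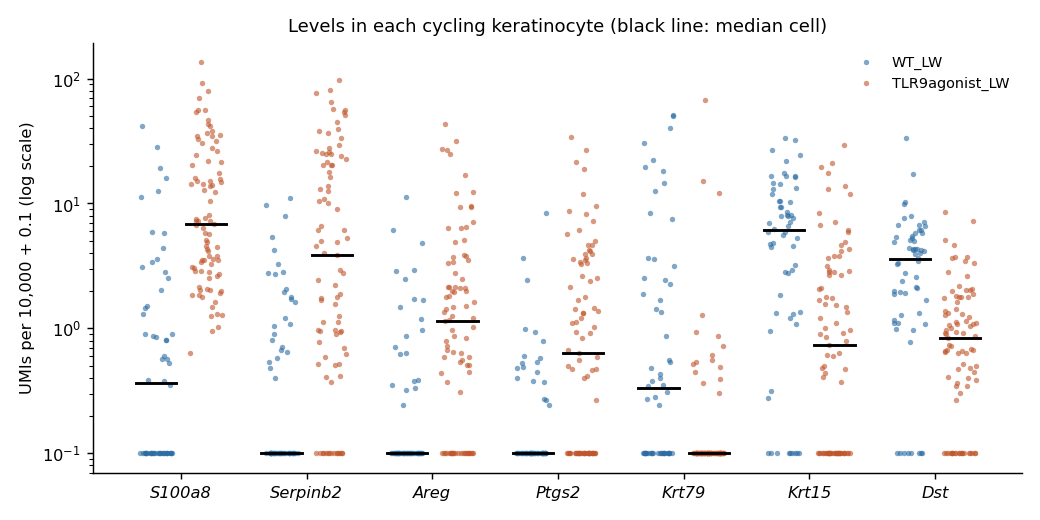
UMIs per 10,000 with 0.1 added (y axis, log scale) of 7 genes in each cycling keratinocyte of WT_LW and TLR9agonist_LW; each point is a cell, black lines mark the median cell, and cells at 0 lie on the lowest level. S100a8 was present in all 87 cells of TLR9agonist_LW and Serpinb2 in 72, while Krt79 was at 0 in most cells of that library, and the ranges of the libraries overlapped for each gene.

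A few genes were left out of the ratios because they had under 10 UMIs in a library, and some of these came from a single cell. All 201 UMIs of Krt75, a keratin of the follicle's companion layer, were in 1 cell of WT_LW, and TLR9agonist_LW had none. Of the 100 UMIs of the protease gene Mmp9 in WT_LW, 99 were in 1 cell, and of the 142 of the hemoglobin gene Hbb-bs, 141 were. In contrast, Sprr2f, a cornified envelope gene, had 208 UMIs in 47 of 87 cells of TLR9agonist_LW and none in WT_LW, and Adm (adrenomedullin) had 107 UMIs in 30 cells against 9 in 7 cells. The Sprr2 genes are near-identical copies, so the split of reads among them is uncertain.

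Gene lists gave the following picture, beside the 2.72% and 3.43% of all genes past 2-fold. The lists were written with earlier results of these data known, so their counts are a description. Of the wound and stress list, 14 genes were counted, 8 past 2-fold higher and none lower, with a median of 1.44, which was 1.22 without the cells rich in genes of other types. Besides S100a8 and S100a9, these were Krt6b (137 and 475 CPM), the envelope genes Sprr1b (57.5 and 211 CPM), Sprr2d (62.8 and 254 CPM) and Sprr2h (16.4 and 51.8 CPM), Plaur, the urokinase receptor (16.4 and 55.1 CPM), and the gap junction gene Gjb2 (41.7 and 74.7 CPM). In WT_LW a single cell held 91.6% of the Sprr2d, 89.3% of the Sprr2h, 62.2% of the Sprr1b and 50.6% of the Krt6b UMIs, and these genes had a UMI in 3, 3, 7 and 21 of its 60 cells against 71, 36, 64 and 63 of the 87 of TLR9agonist_LW. Without the 10% of cells of each library richest in it, Sprr1b had a ratio of 7.07. Only 7 of the 60 cells of WT_LW held it, so few UMIs remained there and this value cannot size the difference. Gjb2 passed 2-fold only relative to the median gene and not on the CPM scale. Krt16 stood at 718 and 1238 CPM (log2 0.98), just under 2-fold. Krt6a and Krt17, the other wound keratins, stood at 1405 and 1629 CPM and at 1338 and 1296 CPM, log2 ratios of 0.41 and 0.15. For Krt17 a single cell held 32.2% of the UMIs of WT_LW, and the ratio without the richest cells was 1.04. The ratios of the list ran from -0.06 for Mmp13 to 2.89 for S100a9.

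Of the EGF family and feedback list, 11 genes were counted, 3 past 2-fold higher (Areg, Epgn and Phlda1) and none lower, with a median of 0.69. Epgn (epigen), another ligand of the EGF receptor, stood at 88 and 210 CPM against 5.97 and 17.5 CPM in leukocytes, and a UMI was found in 17.5% and 44.2% of thinned cells. Hbegf, a further ligand, stood at 165 and 132 CPM and the receptor Egfr at 49.9 and 50.4 CPM. Of these ligands, Areg and Epgn were thus past 2-fold higher while Hbegf was within 2-fold, and the receptor was level on the CPM scale.

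Of the IL-17 and antimicrobial list, 9 genes were counted, 4 past 2-fold higher (S100a8, S100a9, Cxcl2 and Il1rn, the decoy ligand of the IL-1 receptor) and 1 lower, with a median of 0.36, which was 1.12 without the cells rich in genes of other types. The lower gene was Lcn2, an iron-binding antimicrobial protein, at 132 and 48.5 CPM. Of the interferon list, only 4 of 19 genes were counted, none past 2-fold, with a median of -0.03, and Ifit2 had no UMI in the cycling cells of either library.

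Of the hair follicle list, 7 of 24 genes were counted, none past 2-fold higher and 3 lower (Krt79, Lrig1 and Fzd6), with a median of -0.78. With at least 5 UMIs of Mki67 and Top2a the median was -0.25, above that of the G2M list. Lrig1, which marks stem cells above the bulge, stood at 49.9 and 16.3 CPM and the Wnt receptor Fzd6 at 52.2 and 20.1 CPM. Sox9, a bulge transcription factor, gave 187 and 145 CPM, and its log2 ratio was -0.17 (-0.40 to 0.06). Ptn (pleiotrophin) stood at 158 and 183 CPM. Lgr5 had 4 and 8 UMIs, Lhx2 2 and 8, Msx2 5 and 2, Lef1 1 and 0, and Shh none in either library, too few for a ratio, so no difference in these follicle genes was detectable at this depth.

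The 3 lists that follow had members mostly on the higher side without passing 2-fold. Of all 4197 genes counted, 2098 were above 0, since ratios were centred on the median gene. In glycolysis and hypoxia, 17 of 18 genes had a ratio above 0, 1 was past 2-fold, and the median was 0.51; Gapdh stood at 1437 and 2091 CPM. In ribosome biogenesis, all 14 genes counted were above 0, none past 2-fold, and the median was 0.45, where Npm1 stood at 1961 and 2530 CPM. In suprabasal differentiation, 10 of 13 were above 0, 1 past 2-fold (Krtdap, 714 and 1482 CPM), and the median was 0.35. That median was -0.04 with at least 2 UMIs of Mki67 and Top2a, and -0.08 in cells with 3 UMIs of Col17a1, Itga6 and Itgb4. The regulators Zfp750 (53.4 and 71.4 CPM), Cebpa (55.8 and 58.3 CPM) and Grhl1 (44.6 and 30.8 CPM) were each within 2-fold, as was Bhlhe40 at 218 and 230 CPM.

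Genes that respond to tissue dissociation differed in both directions. Of 15 counted, 4 were past 2-fold higher, namely the heat shock genes Hspa1a (400 and 1162 CPM), Hspa1b (499 and 1371 CPM) and Dnajb1 (227 and 563 CPM), and Nfkbia. Another 3 were lower, the immediate early genes Fos (1500 and 563 CPM) and Fosb (623 and 207 CPM), and Zfp36. Hspa1a and Hspa1b are near-identical copies. In endothelial cells Hspa1a stood at 739 and 4264 CPM and Fos at 1245 and 1021 CPM, so their order between the libraries was the same there. How far handling of the tissue contributed was not tested.

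**Figure D5:**
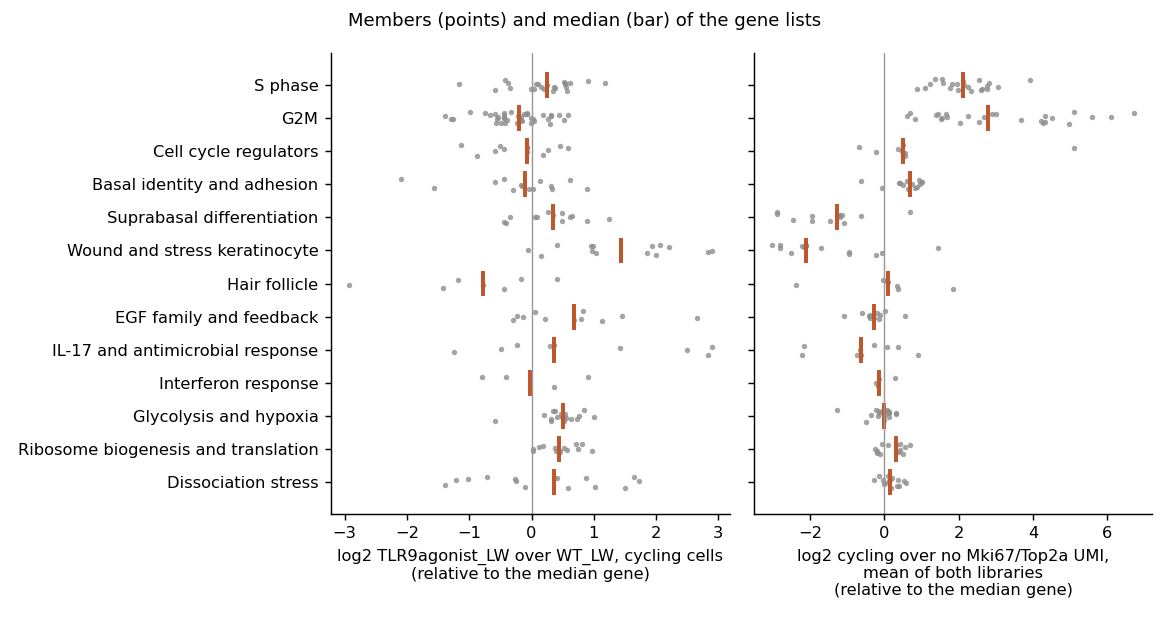
log2 ratios relative to the median gene of the counted members (points) and the median (bar) of 13 gene lists, for TLR9agonist_LW over WT_LW within cycling keratinocytes (left) and for cycling over non-cycling keratinocytes as the mean of the libraries (right). On the left the wound and stress list had the highest median (1.44) and the hair follicle list the lowest (-0.78, but -0.25 with at least 5 UMIs of Mki67 and Top2a); on the right, which the choice of cells used, the S phase and G2M lists had medians of 2.12 and 2.78.

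The library comparison was set beside the same comparison in keratinocytes of the gate with no Mki67 or Top2a UMI, 190 in WT_LW and 569 in TLR9agonist_LW. There, of 7458 genes counted, 6.44% were at least 2-fold higher and 4.77% at least 2-fold lower. Of the 114 genes past 2-fold higher in cycling cells, 112 were also counted in the non-cycling cells, and 87 were past 2-fold higher there too, with a median of 1.57 against 1.31. Of the 144 lower genes, 135 were counted, 52 were past 2-fold lower and 2 past 2-fold higher, with a median of -0.88 against -1.25. These pools come from the same libraries and share their free RNA, so the counts describe the libraries and are not independent of each other.

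Some genes stood further apart between the states. S100a8 was at 1053 and 8752 CPM in the non-cycling cells, a log2 ratio of 3.53 against 2.83 in the cycling cells. Areg was at 237 and 422 CPM, a ratio of 1.31 against 2.65. Mmp13, a collagenase of migrating keratinocytes, had a ratio of 4.72 in the non-cycling and -0.06 in the cycling cells, where a single cell held 85.3% of the UMIs of WT_LW. The wound and stress list had a median of 2.09 in the non-cycling cells, with 13 of 15 genes past 2-fold higher, and Krt15 was at 514 and 74.7 CPM (-2.31). Whether a ratio differed between the states could not be tested with 1 library per group.

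Lastly, cycling cells were set against non-cycling cells within each library. The rule used this contrast, so the values are a description and nothing is read from the counts. Relative to the median gene, 158 of 4154 genes (3.8%) were at least 2-fold higher in cycling cells of both libraries and 68 (1.64%) at least 2-fold lower. Of the S phase list, 20 of 22 genes counted were among the higher ones and of the G2M list 23 of 26.

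The genes highest in cycling cells were mostly mitotic, with the histone gene Hist1h2ae also among them. Ube2c stood at 315 CPM in cycling and 3.87 CPM in non-cycling cells of WT_LW and at 374 and 2.05 CPM in TLR9agonist_LW. Birc5 stood at 200 and 2.98 CPM, and at 180 and 1.96 CPM. Further genes at this end were Tpx2, a spindle assembly factor, Cdca3, Ccnb2 (cyclin B2), Prc1, which bundles the midzone of the spindle, Hist1h2ae, Cenpa, the histone of centromeres, Cdca8 and Tacc3. The first of them, Tpx2, was at 108 and 2.98 CPM in WT_LW and at 71.4 and 1.96 CPM in TLR9agonist_LW.

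The genes lowest in cycling cells belonged to differentiating keratinocytes. Krt1 stood at 1040 CPM in cycling and 8339 CPM in non-cycling cells of WT_LW, and at 1157 and 5991 CPM in TLR9agonist_LW. Krt10 stood at 751 and 6248 CPM, and at 925 and 4655 CPM. Cst6, a protease inhibitor of the outer epidermis, stood at 67.5 and 1588 CPM, and at 34.5 and 777 CPM. The others were Elovl4, which lengthens the fatty acids of the skin barrier, Calm4, Sprr1b, Krt6b, Krt16, Defb6 and Sbsn. The wound list had 8 of 14 genes among the lower ones and the suprabasal list 6 of 13.

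The counts depended on whether differentiated cells were kept among the non-cycling ones. With only cells that had fewer Krt1 and Krt10 than Krt5 and Krt14 UMIs in both states, 117 genes were higher and 33 lower in both libraries, and with only cells that had 3 UMIs of Col17a1, Itga6 and Itgb4, 100 and 15. None of the 14 basal genes counted was past 2-fold in both libraries, but the list's median was 0.45 in WT_LW and 1.02 in TLR9agonist_LW. Krt5 stood at 5901 and 2861 CPM in WT_LW and at 4801 and 1573 CPM in TLR9agonist_LW, and Krt14 at 11373 and 11256 CPM and at 13842 and 9391 CPM.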

How the data were processed

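The authors made the deposited counts with Cell Ranger (version 4.0.0 in the file headers) from 10x Genomics 3′ libraries, as raw UMI counts per gene and called cell, without normalization. The submitters' processing notes also name fastp, Seurat and the build mm9; the files hold no coordinates. The methods describe epidermis and dermis dissociated apart and recombined. Promoters were joined by symbol from RefSeq (GRCm38.p6), and transcript lengths by Ensembl identifier from GENCODE vM21 (4196 of 4197 genes).

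From these counts, UMIs were summed over the gated cells of each library and given as CPM (cell counts and depths are in the report). The members and gene lists were chosen with earlier results of these data known. With 1 library per group there was no test: shares have exact Clopper-Pearson intervals, CPM exact Poisson intervals and log2 ratios exact conditional binomial intervals, at 95%. UMIs count molecules, and these intervals cover counting error only. The interval of the median S phase share came from the ranks of the cells of 1 library. Ratios were centred on the median of the genes with at least 100 UMIs over both libraries and 10 in each. Genes named are the 12 highest and 12 lowest by library, the 10 highest and 10 lowest by state (the weaker of both libraries), without Gm, Rik, Rpl, Rps and mt- genes, and also the rule's genes, those of the study and the members of the lists with the most UMIs. Krt75, Mmp9, Hbb-bs, Sprr2f, Adm, Mmp13 and the length check were picked after their values were seen. Leukocytes (at least 3 UMIs of Ptprc) and endothelial cells (at least 3 UMIs of Pecam1 and Cdh5, no Ptprc, fewer than 20 UMIs of Krt5 and Krt14) gave the free RNA level; both types can also express a gene themselves.

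Doublets were not removed from the main counts. Scrublet in scanpy 1.11.5 called no cell of WT_LW, so leaving out the 10% of cells with the highest score was an alternative. Others were stricter or looser thresholds, equal weight per cell, unscaled CPM, and gene filters of 50 and 10 UMIs. Scripts ran in Python with numpy and scipy and were tested on simulated counts. Certain genes are not reported here.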

Additional observations from a re-analysis of the deposited data

How the results depend on the processing

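Of the alternative values of shares, gene counts and list medians, 432 stayed within their margin and 38 did not. A value within its margin can still have moved: the IL-17 median went from 0.36 to 1.12 and the hair follicle median from -0.78 to -0.25. The 432 therefore do not show that the values held. List medians near 0 changed sign in 19 cases over 6 list medians, none of them over 0.35 in size as reported; for example the library median of the suprabasal list was -0.04 with at least 2 UMIs of Mki67 and Top2a and -0.08 in cells with 3 UMIs of Col17a1, Itga6 and Itgb4, and that of the interferon list 0.36 with at least 5. No paired analysis was possible because each group is 1 library and the groups share only 1 replicate number. Leaving out a replicate was impossible for the same reason, so these alternatives cover choices of cells, genes and scale; what lies behind the shifts was not tested.

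With at least 5 UMIs of Mki67 and Top2a, the cycling share was 13.6% in WT_LW and 8.66% in TLR9agonist_LW, no cycling cell (0%) of WT_LW had more Krt1 and Krt10 than Krt5 and Krt14, and the library medians were -0.47 for the G2M, 0.79 for the suprabasal and -0.25 for the hair follicle list. With at least 2 UMIs, the share in TLR9agonist_LW was 15.4% and the share of such differentiated cells in WT_LW 12%. Thinned to 2000 UMIs, the cycling shares were 17.5% and 8.53%. With only cells that had fewer Krt1 and Krt10 than Krt5 and Krt14 UMIs, the shares were 25.4% and 16.8%, 33 genes were lower in cycling cells of both libraries, and the medians of cycling over non-cycling cells were 0.21 for the basal and -1.0 for the suprabasal list. With only cells that had 3 UMIs of Col17a1, Itga6 and Itgb4, a choice made after seeing the data, the shares were 28% and 20.9%, 100 genes were higher and 15 lower in both libraries, and these medians were 0.02 and -0.91.

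Without cells in which markers of other types made 5% or more of marker UMIs, the library medians were 0.31 for the glycolysis and 1.12 for the IL-17 list, and the regulators had a state median of 0.56. On the CPM scale without centring, 77 genes were higher and 281 lower in TLR9agonist_LW, the glycolysis list had a library median of 0.31, and the state medians were 0.71 for regulators, -1.07 for suprabasal, 0.20 for glycolysis and 0.51 for ribosome biogenesis genes. A gene filter of 50 UMIs gave 223 genes higher and 288 lower by library and 262 higher and 115 lower by state. A filter of 10 UMIs gave 623, 1030, 527 and 292, with a library median of 0.64 for glycolysis. The state median of the 4 interferon genes was -0.24 at 5 UMIs of Mki67 and Top2a, and -0.24 for that list with the filter of 10 UMIs.

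Of single genes, Klk7 was at -0.66 with at least 5 UMIs of Mki67 and Top2a, Defb6 at -0.36 with at least 2, Rgs5 at -0.52 without cells of other markers, and Cxcl2 at 0.85 without the richest cells, each under 2-fold. For cycling over non-cycling cells, Sprr1b was at -0.64 and Defb6 at -0.39 in cells with 3 UMIs of Col17a1, Itga6 and Itgb4. Depth limits the genes with few UMIs: with 60 and 87 cells, 4197 of the genes could be given a ratio.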
